A study of Mus musculus with 6 samples.

Results

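The miR-34 and miR-449 family of mature microRNAs was followed in whole mouse ovary under low-pressure hypoxia. Members were the rows of the miRNA table whose names begin with miR-34a, miR-34b, miR-34c, miR-449a, miR-449b or miR-449c. The rule used names alone and found 8 of the 1300 miRNAs listed. They are, with the mouse prefix mmu- mostly left out, miR-34a-5p, miR-34a-3p, miR-34b-5p, miR-34b-3p, miR-34c-5p, miR-34c-3p, miR-449a-5p and miR-449c-5p.

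Ovaries came from female C57BL/6J mice, 8 weeks old in the design text, and gave 3 small RNA libraries per group. The hypobaric hypoxia group lived in a decompression chamber at 43.12 kPa with oxygen at 8.1 kPa, a simulated altitude of 6500 m. The normal pressure group was kept in Lanzhou at 83.56 kPa with oxygen at 17.8 kPa, at 1588 m in the design text and 1500 m in the titles. Both groups were hormonally synchronized with oral levonorgestrel and ethinylestradiol. Doses, 0.1 and 0.02 mg/kg, are stated for the hypobaric mice only, so equal dosing is not stated. Exposure lasted 15 days in the design text and 15, 16 or 17 days by replicate number in the descriptions, which also give the simulated altitude as 5000 m. Dark periods are labelled as 12 h for all hypobaric libraries and as 12, 13 and 14 h for normal pressure libraries 1, 2 and 3, while the design text gives all mice a dark period of 12 h. The part of light cycle or exposure time in the results was not tested. Each group had 15 mice by the design text. Whether a library is 1 mouse or a pool is not stated, so the p-values cover the spread among libraries only, some of which may be technical.

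MicroRNAs are short RNAs that pair, mainly through a seed at bases 2 to 8, with messenger RNAs and lower their output. miR-34a is a direct transcriptional target of the tumor suppressor p53 and represses cell cycle and survival genes. The miR-34b/c and miR-449 clusters are best known from multiciliated cells of airway, brain and oviduct and from male germ cells, and mice lacking both clusters have defective motile cilia and are infertile.

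RefSeq mature sequences on GRCm38.p6 were matched for 7 of the 8 members, all but miR-34c-5p. They are printed 5′ to 3′ because the family is defined by its seed, which is in capitals.
miR-34a-5p: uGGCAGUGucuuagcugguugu
miR-34b-5p: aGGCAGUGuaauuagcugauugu
miR-449a-5p: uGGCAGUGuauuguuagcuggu
miR-449c-5p: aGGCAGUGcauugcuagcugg
miR-34b-3p: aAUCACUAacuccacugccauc
miR-34c-3p: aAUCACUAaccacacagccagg
miR-34a-3p: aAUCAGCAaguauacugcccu
The first 4 share the seed GGCAGUG, and no other mature sequence among the 1679 in the RefSeq table has it. As miR-34c-5p was not matched there, this count cannot show whether miR-34c-5p has the seed. The miR-34c precursor, printed further on as a hairpin, does hold the letters GGCAGUG. The 3p arms of miR-34b and miR-34c share the seed AUCACUA, again with no other sequence, while miR-34a-3p has a seed of its own. Compared base by base without gaps, miR-449a-5p and miR-449c-5p were identical at 18 of 21 positions, with U1A, U9C and U14C counted from the 5′ end (the base of miR-449a-5p first). miR-34a-5p and miR-449a-5p share their first 9 bases. The 3p arms of miR-34b and miR-34c were identical at 17 of 22 positions. Among the 867 names of the table matched to RefSeq, no member shares its whole mature sequence with another. The handling of reads matching more than 1 miRNA is not given here.

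The members come from 3 loci. The miR-34a precursor lies on the plus strand of chromosome 4, at chr4:150068454-150068555. It overlaps Gm37795, a transcript model marked for experimental testing, by 17 bases, at an exon. The precursors of miR-34b (chr9:51103562-51103645) and miR-34c (chr9:51103034-51103110) lie 451 bases apart on the minus strand of chromosome 9. Both are opposite an intron of Btg4, a gene of oocytes. Those of miR-449c (chr13:113035983-113036091) and miR-449a (chr13:113037534-113037624) lie 1442 bases apart on the plus strand of chromosome 13, within introns of Cdc20b, a gene active in multiciliated cells.

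Each library held 20800777 to 22559146 reads, and 6852198 to 8701696 of them were miRNA reads. Levels are reads per 1000000 reads (RPM), not divided by length. Levels of different miRNAs also carry differences in ligation efficiency, so their order is a description. Normal pressure library 2 and hypobaric library 3 stood apart from the other 4 on the second principal component (-6.78 and -9.11, against 1.77 to 5.83), which held 28.1% of the variance. Results are therefore also given without this pair. The gonad-enriched miR-202-5p, a check of the tissue, was at 1921 to 2955 RPM under hypobaric hypoxia and 933 to 1257 RPM at normal pressure.

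miR-34a-5p was the most abundant member, and with miR-449a-5p it was lower in every hypobaric library than in every normal pressure library. None of the 4 miR-34b and miR-34c rows separated the groups. Differences were tested with limma on log2(RPM + 1), adjusted over the 475 miRNAs whose mean reached 1 RPM, a filter that 7 of the 8 members passed. At an adjusted p of 0.05, limma called 0 of the 7, where 4.84% of all tested miRNAs were called. Groups apart and lower under hypobaric hypoxia, seen in 2 of the 7, were seen in 36 of the 475 tested (7.58%). Groups apart and higher were seen in 0 of the 7 and in 91 of the 475. An unadjusted limma p under 0.05 was found for the 2 members that were lower, against 20.2% of all tested. edgeR on the recovered reads called 0 of the 7, where 5.26% of all tested were called. DESeq2 called both miR-34a-5p and miR-449a-5p as lower, where it called 6.05% of all tested as lower (27, with 29 higher). Without the pair of libraries that stood apart limma called the same 2 as lower, against 2.74% of all tested (13, with 34 higher). Where a member passed, the share is given for its direction only, a choice that followed the members' own results. With names of identical mature sequence summed it called 0 of the 7, against 5.3% of all tested. Over all tested miRNAs limma called 15 higher and 8 lower in RPM, against 12 and 19 per 1000000 miRNA reads, 12 and 14 with median-of-ratios scaling, 11 and 14 with edgeR and 29 and 27 with DESeq2. In a whole organ, fewer cells of a type and less RNA per cell cannot be told apart.

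**Figure D1:**
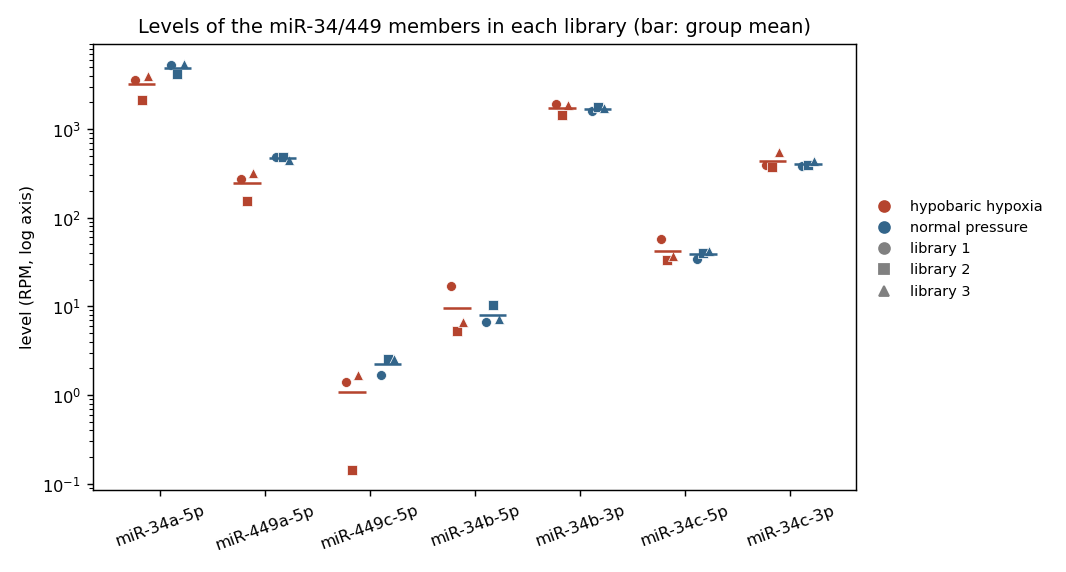
Level of each tested member in RPM (log axis) in the 3 hypobaric hypoxia libraries (red) and the 3 normal pressure libraries (blue), with marker shape for library number and a bar for the group mean. The groups are separate for miR-34a-5p and miR-449a-5p and overlap for the other 5, and hypobaric library 2 is the lowest point of each member.

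mmu-miR-34a-5p was at 3521, 2113 and 3918 RPM in hypobaric libraries 1, 2 and 3, against 5233, 4154 and 5367 RPM in normal pressure libraries 1, 2 and 3. The groups did not overlap, and hypobaric library 2 was the lowest. The means were 3184 ± 948 RPM under hypobaric hypoxia and 4918 ± 665 RPM at normal pressure (SD, n = 3 each), behind which stood 44327 to 111633 reads per library. Its log2 change was -0.67 ± 0.24 (SE), with a 95% interval from -1.20 to -0.13 and limma adjusted p = 0.149. Without hypobaric library 2 the log2 change was -0.40 (limma adjusted p = 0.385). Without the pair of libraries that stood apart it was -0.96 (limma adjusted p = 0.0329), with 2 libraries left per group. That pair held the highest hypobaric and the lowest normal pressure value of miR-34a-5p, so leaving it out had to widen the difference. By its mean over all 6 libraries miR-34a-5p ranked 25th of 1300.

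The opposite arm, miR-34a-3p, was all but missing from the libraries. It had 2 reads in hypobaric library 1 and 1 read in normal pressure library 3. In the other 4 libraries it had 0 reads, which allows levels of up to 0.133 to 0.143 RPM at 3 reads, for counting error only. It was not tested.

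mmu-miR-449a-5p, the abundant product of the Cdc20b locus, was at 270, 153 and 318 RPM in hypobaric libraries 1, 2 and 3. At normal pressure it was at 477, 481 and 448.9 RPM. The normal pressure libraries lay close together and all above the hypobaric ones, among which library 2 was again lowest. The means were 247 ± 85.1 RPM under hypobaric hypoxia and 469 ± 17.4 RPM at normal pressure (SD, n = 3 each). The log2 change was -0.99 ± 0.27 (SE), with a 95% interval from -1.60 to -0.37 and limma adjusted p = 0.0810. Leaving out hypobaric library 3 (limma adjusted p = 0.0352) or the pair that stood apart (0.0299) brought it past the threshold. Both leave out the highest hypobaric value of miR-449a-5p, that of library 3. Without hypobaric library 3, 1.89% of all tested miRNAs (9) passed as lower and 25 miRNAs passed as higher.

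Its neighbour miR-449c-5p was scarce, with 3 to 57 reads per library. It was at 1.42, 0.143 and 1.70 RPM in hypobaric libraries 1, 2 and 3, against 1.67, 2.53 and 2.55 RPM in normal pressure libraries 1, 2 and 3. The groups overlapped by hypobaric library 3 and normal pressure library 1. The log2 change was -0.72 ± 0.33 (SE), with limma adjusted p = 0.267, and it was -0.34 without hypobaric library 2, whose value rests on 3 reads. With a pseudocount of 0.1 RPM the log2 change was -1.41 (limma adjusted p = 0.292), as values near 1 RPM are compressed by a pseudocount of 1.

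The miR-34b and miR-34c rows come from neighbouring precursors, and most of their reads came from the 3p arm. Arm shares compare reads of different sequences, so they also carry differences in ligation efficiency. The hairpins are shown because of this difference in reads, with the 3p arm in capitals.
Mir34b: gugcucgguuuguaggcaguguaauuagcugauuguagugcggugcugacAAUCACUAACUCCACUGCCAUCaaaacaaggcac
Mir34c: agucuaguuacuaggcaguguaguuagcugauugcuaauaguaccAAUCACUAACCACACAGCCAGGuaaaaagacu
Both hairpins hold the letters of the seed GGCAGUG on their 5p side. The 3p arm held 99.5% ± 0.306 of miR-34b reads under hypobaric hypoxia and 99.5% ± 0.101 at normal pressure (SD, n = 3 each). For miR-34c it held 91.0% ± 3.30 under hypobaric hypoxia and 91.2% ± 0.522 at normal pressure (SD, n = 3 each). In miR-34a the 3p arm held at most 0.00268% of the reads of a library. The arm with the GGCAGUG seed was therefore the abundant one from the miR-34a precursor and the scarce one from the miR-34b precursor. The scarce arm of miR-34c is left out of this comparison only because its mature sequence was not matched. The arm shares of miR-34b and miR-34c overlapped between groups. Their lowest values were both in hypobaric library 1, at 99.1% for miR-34b and 87.3% for miR-34c.

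mmu-miR-34b-3p was at 1901, 1426 and 1878 RPM in hypobaric libraries 1, 2 and 3, against 1586, 1764 and 1729 RPM in normal pressure libraries 1, 2 and 3. The groups overlapped, with the highest and the lowest value both under hypobaric hypoxia. The means were 1735 ± 268 RPM under hypobaric hypoxia and 1693 ± 94.6 RPM at normal pressure (SD, n = 3 each). The log2 change was 0.02 ± 0.17 (SE), with a 95% interval from -0.36 to 0.41 and limma adjusted p = 0.925. It ranked 42nd of 1300 by its mean.

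mmu-miR-34c-3p was at 393, 377 and 544 RPM in hypobaric libraries 1, 2 and 3, against 378, 389 and 437 RPM in normal pressure libraries 1, 2 and 3. The groups overlapped, and hypobaric library 3 stood above the other 5. Its log2 change was 0.11 ± 0.20 (SE), with a 95% interval from -0.35 to 0.56 and limma adjusted p = 0.768.

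The 5p arms of this locus were far lower. miR-34c-5p was at 57.2, 33.2 and 36.7 RPM under hypobaric hypoxia and at 34.3, 40.1 and 42.0 RPM at normal pressure (libraries 1, 2 and 3 of each). miR-34b-5p was at 17.1, 5.24 and 6.68 RPM under hypobaric hypoxia and at 6.62, 10.4 and 7.12 RPM at normal pressure. In both, hypobaric library 1 was the highest of the 6 and hypobaric library 2 the lowest, so the hypobaric range enclosed that at normal pressure. The log2 change of miR-34c-5p was 0.09 ± 0.25 (SE; limma adjusted p = 0.836) and that of miR-34b-5p 0.10 ± 0.38 (SE; limma adjusted p = 0.877). The 95% interval of miR-34b-5p, from -0.76 to 0.96, includes changes as large as those of miR-34a-5p and miR-449a-5p.

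**Figure D2:**
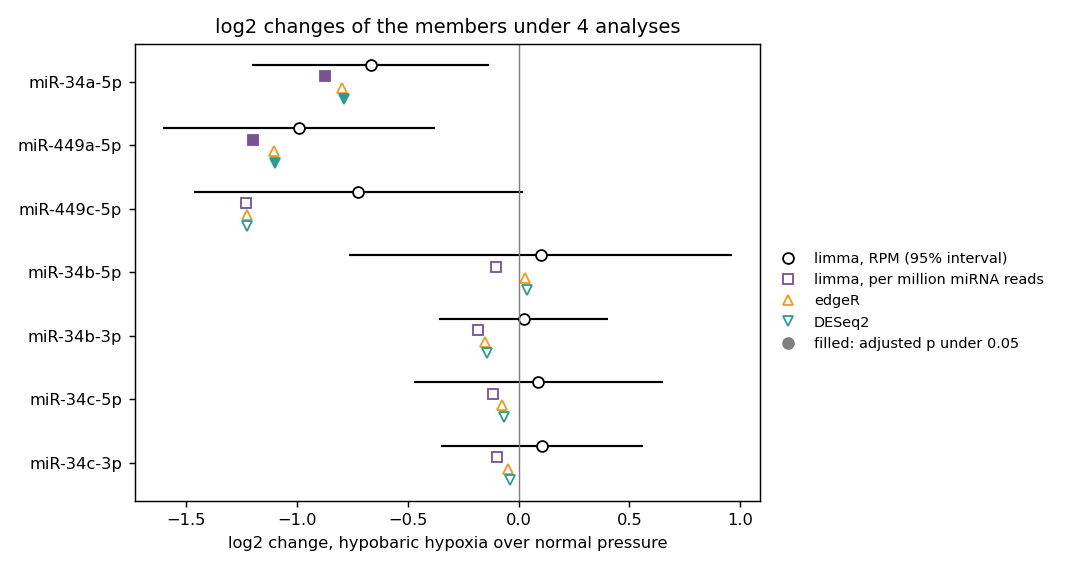
log2 change of each tested member, hypobaric hypoxia over normal pressure, from limma on RPM (black, with its 95% interval), limma on reads per 1000000 miRNA reads, edgeR and DESeq2. Filled symbols mark an adjusted p under 0.05, reached by miR-34a-5p and miR-449a-5p in the same 2 analyses; the miR-34b and miR-34c rows lie between -0.18 and 0.11 in all 4.

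The scaling touches these values. miRNAs took 39.1% ± 1.73 of all reads under hypobaric hypoxia and 33.9% ± 3.14 at normal pressure (SD, n = 3 each), so the authors' RPM puts the median of all tested miRNAs at a log2 change of 0.15. Relative to that median miR-34a-5p was at -0.82 and miR-449a-5p at -1.14. Per 1000000 miRNA reads, miR-34a-5p averaged 8140 ± 2395 under hypobaric hypoxia and 14465 ± 825 at normal pressure (SD, n = 3 each). Its log2 change was then -0.87, with limma adjusted p = 0.0484. On that scale miR-449a-5p averaged 631 ± 218 under hypobaric hypoxia and 1392 ± 165 at normal pressure (SD, n = 3 each), a log2 change of -1.20 with limma adjusted p = 0.0395. On it 4% of all tested miRNAs (19) were called lower and 12 miRNAs were called higher. The log2 changes of the 4 miR-34b and miR-34c rows, positive in RPM, became negative there, between -0.18 and -0.10, and did not pass. DESeq2 gave log2 changes of -0.79 for miR-34a-5p (adjusted p = 0.0264) and -1.10 for miR-449a-5p (adjusted p = 0.00308). edgeR gave the same log2 changes to 2 decimals, with adjusted p = 0.115 for miR-34a-5p and 0.0796 for miR-449a-5p.

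Ordered by level at normal pressure, miR-34a-5p stood first, then miR-34b-3p, miR-449a-5p, miR-34c-3p, miR-34c-5p, miR-34b-5p, miR-449c-5p and miR-34a-3p. In hypobaric libraries miR-449a-5p and miR-34c-3p had changed places, with 153 to 318 RPM for miR-449a-5p and 377 to 544 RPM for miR-34c-3p. At normal pressure all 3 libraries had miR-449a-5p (448.9 to 481 RPM) above miR-34c-3p (378 to 437 RPM). No neighbours in the order of either group overlapped in range. In both groups miR-34a-5p gave most of the reads of the 5p members, 91.4% ± 0.331 under hypobaric hypoxia and 90.3% ± 1.52 at normal pressure (SD, n = 3 each). Summed, the 5p members were at 2304 to 4281 RPM under hypobaric hypoxia and 4688 to 5867 RPM at normal pressure. The summed 3p members were at 1802 to 2422 RPM under hypobaric hypoxia and 1964 to 2166 RPM at normal pressure.

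miR-34a-5p was compared with each other tested member within each library, as log2 ratios with 1 RPM added to each level. The link of any member to p53 or to cilia was not tested here. Apart from that added 1 RPM, which weighs on the scarcest members, the scaling cancels. Against miR-34b-3p, its log2 ratio was 0.89, 0.57 and 1.06 in hypobaric libraries 1, 2 and 3, and 1.72, 1.23 and 1.63 in normal pressure libraries 1, 2 and 3. Every hypobaric library was below every normal pressure library, with a difference of -0.69. Against miR-34c-3p the ratio was likewise lower in every hypobaric library, by -0.77. In linear terms there were 5.61 to 8.96 reads of miR-34a-5p per read of miR-34c-3p under hypobaric hypoxia and 10.7 to 13.8 at normal pressure.

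Against miR-34c-5p and miR-34b-5p the differences were of similar size, -0.75 and -0.77, but the groups overlapped. Against miR-449a-5p the difference had the other sign. The log2 ratio was 3.70, 3.78 and 3.62 in hypobaric libraries 1, 2 and 3, and 3.45, 3.11 and 3.58 in normal pressure libraries 1, 2 and 3. All hypobaric ratios lay above those at normal pressure, by 0.32 on average and by 0.19 without normal pressure library 2. Against miR-449c-5p, at 0.143 to 2.55 RPM, the value depended on the added 1 RPM. The difference was 0.05 with it and 0.99 without it, and the groups overlapped both ways. Without it the log2 ratio was 11.28, 13.85 and 11.17 in hypobaric libraries 1, 2 and 3, against 11.62, 10.68 and 11.04 in normal pressure libraries 1, 2 and 3. The high value of hypobaric library 2 rests on 3 reads of miR-449c-5p. For the other 5 pairs the difference moved by less than 0.01 without the added 1 RPM.

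By the two-sided exact permutation test p was 0.1 for miR-34b-3p, miR-34c-3p and miR-449a-5p, the smallest p possible with 3 against 3. The exact permutation p was 0.2 for both 5p arms and 1 for miR-449c-5p, and adjusted over the 6 pairs the lowest was 0.2. Without the added 1 RPM the exact permutation p was 0.4 for miR-449c-5p and 0.3 for miR-34b-5p, and it was the same for the other 4 pairs. The 3 against 3 design cannot pass a threshold of 0.05 in this test. All 6 ratios share miR-34a-5p and carry its own change, so they are not separate observations.

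**Figure D3:**
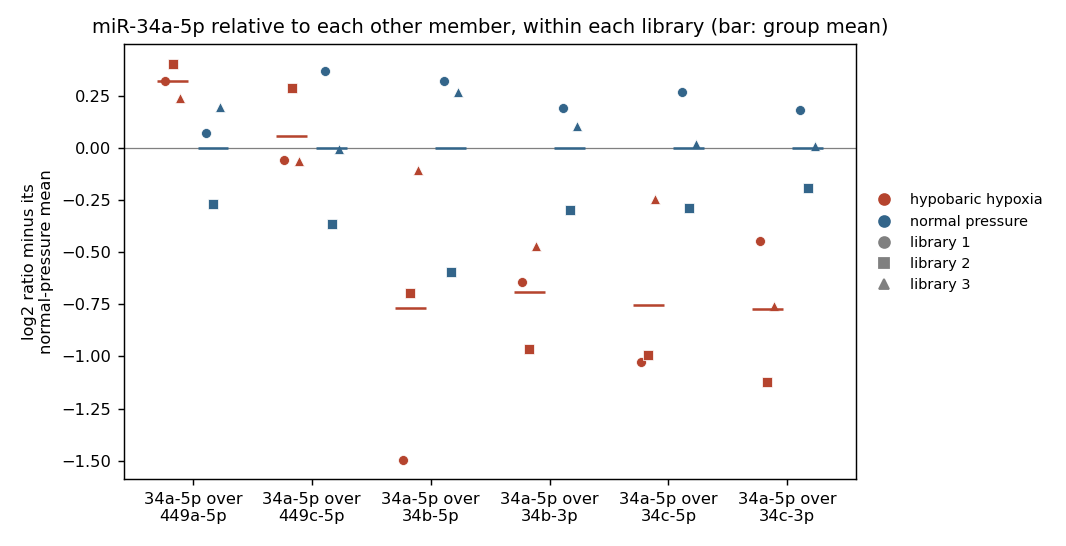
log2 ratio, with 1 RPM added to each level, of miR-34a-5p to each other tested member within each library, as the distance from that ratio's normal pressure mean, for hypobaric hypoxia (red) and normal pressure (blue); bars are group means. The ratios to miR-34b-3p and miR-34c-3p are lower in all 3 hypobaric libraries, and the ratio to miR-449a-5p is slightly higher.

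All 7 tested members had their lowest value in hypobaric library 2. Among all tested miRNAs 13.7% had their lowest value there, and 42.7% in normal pressure library 2. The members share precursors and a library, so the 7 are not separate observations.

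The profile of each member over the 6 libraries was set beside those of the 468 tested miRNAs outside the family, by the root mean square difference of log2(RPM + 1) after subtraction of each miRNA's mean. Nearest to miR-34a-5p were miR-138-5p, a brain-enriched miRNA (0.16), miR-27a-5p, the minor arm of miR-27a (0.18), and miR-183-5p of the sensory and epithelial miR-183 cluster (0.20). The same 3 were nearest to miR-449a-5p outside the family, at 0.28 to 0.30, while miR-34a-5p and miR-449c-5p were both nearer to it at 0.22. For miR-34c-5p the nearest were miR-133a-3p of striated muscle (0.13), miR-219a-1-3p (0.15) and miR-377-3p of the Dlk1-Dio3 cluster (0.15). miR-34a-5p was at 0.48 from miR-34c-5p. These distances describe 6 libraries and include the difference between groups. They also depend on the added 1 RPM, which compresses values near 1 RPM. That holds for miR-449c-5p (0.143 to 2.55 RPM), miR-219a-1-3p (1.43 to 2.17 RPM) and miR-377-3p (0.894 to 2.41 RPM).

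p53-linked miRNAs outside the family were listed to set beside miR-34a. Of 12 listed, 10 were tested, 1 rose, 0 fell and 9 did not pass, where limma called 3.16% of all tested miRNAs higher and 1.68% lower. Their median log2 change was 0.18, against 0.15 over all tested. The one that rose was miR-16-5p, which targets cell cycle genes and is abundant in blood cells. It was at 8873, 8668 and 7768 RPM in hypobaric libraries 1, 2 and 3, against 4598, 2710 and 4692 RPM in normal pressure libraries 1, 2 and 3. The groups were far apart, and limma gave adjusted p = 0.0161 for a log2 change of 1.12 ± 0.21 (SE). miR-107-3p, encoded in a pantothenate kinase gene, had a log2 change of 0.78 with limma adjusted p = 0.115. Of the 10 log2 changes 6 were positive and 4 negative. The negative ones included miR-141-3p (-0.63) and miR-22-3p (-0.32), and none of them passed.

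Epithelial miRNAs were listed because multiciliated cells are epithelial. All 10 were tested, 0 rose, 1 fell and 9 did not pass, where limma called 3.16% of all tested miRNAs higher and 1.68% lower. Their median log2 change was -0.12. miR-200c-3p and miR-141-3p stand in both lists. The one that fell was miR-96-5p of the miR-183 cluster, at 9.71 ± 2.50 RPM under hypobaric hypoxia and 25.2 ± 8.75 RPM at normal pressure (SD, n = 3 each; limma adjusted p = 0.0374). miR-182-5p of the same cluster had a log2 change of -1.20 with limma adjusted p = 0.0810. The list summed to 3316 to 3844 RPM under hypobaric hypoxia and 2669 to 4181 RPM at normal pressure, ranges that overlap. Of the 10 log2 changes 7 were negative and 3 positive, the positive ones being miR-205-5p (0.69), miR-200b-3p (0.61) and miR-200a-3p (0.41), none of which passed. The miR-200 family member miR-200c-3p, typical of epithelium, was at 677 ± 87.4 RPM under hypobaric hypoxia and 741 ± 131 RPM at normal pressure (SD, n = 3 each). Of the miRNAs listed as markers of ciliated cells, all of them members, 4 were in the table, the 5p arms of miR-449a, miR-449c, miR-34b and miR-34c, and none was at 0 in any library. They summed to 191 to 363 RPM under hypobaric hypoxia and 501 to 534 RPM at normal pressure, mostly reads of miR-449a-5p. With the abundant 3p arms of miR-34b and miR-34c added, the sums were 1994 to 2785 RPM under hypobaric hypoxia and 2484 to 2687 RPM at normal pressure, ranges that overlap.

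Red-cell miRNAs moved with the groups. Of 7 listed, 6 were tested and 4 rose: miR-144-3p, miR-451a and the 3p arms of miR-486a and miR-486b. Of all tested miRNAs, limma called 3.16% higher. The 7 summed to 9459 to 15085 RPM under hypobaric hypoxia and 726 to 1577 RPM at normal pressure, and none was at 0 in every library. Most of these reads were miR-451a, at 9330 to 14917 RPM under hypobaric hypoxia and 676 to 1549 RPM at normal pressure. Of 5 ovarian miRNAs listed, 2 rose, miR-202-5p and miR-202-3p, and 3 did not pass, against the same 3.16% of all tested. The part of blood content, of the miRNA share of reads or of ovarian cell makeup in the values of miR-34a-5p and miR-449a-5p was not tested.

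**Figure D4:**
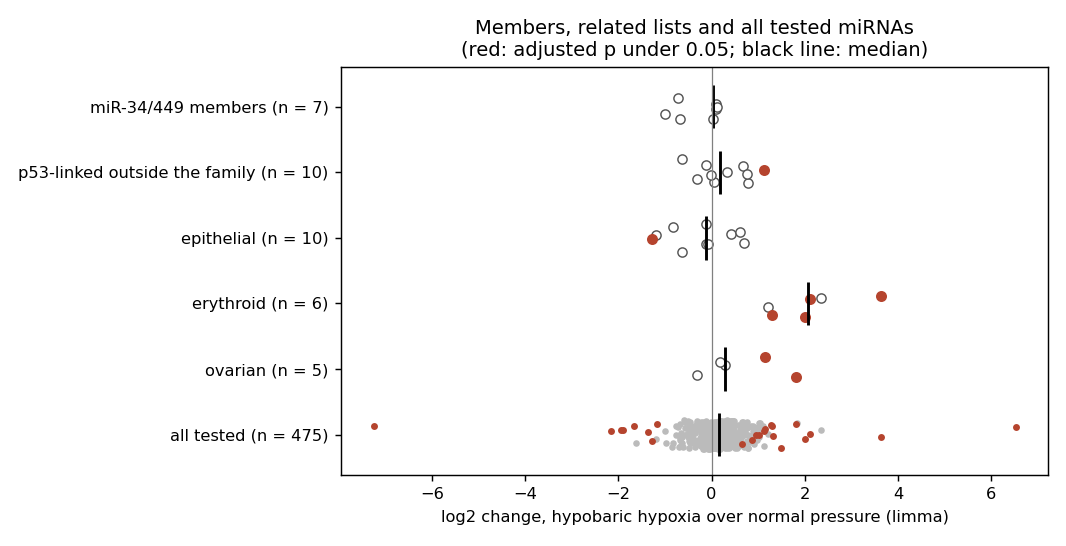
log2 change (limma), hypobaric hypoxia over normal pressure, of the 7 tested members, the tested miRNAs of each related list and all 475 tested miRNAs; red points have an adjusted p under 0.05 and black lines are medians. The family has a median of 0.02 and no red point, and the erythroid list a median of 2.06.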

How the data were processed

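Small RNA libraries were made from 1.3 µg of total RNA by gel selection, adapter ligation, reverse transcription and PCR, and read as single-end 50-base reads on a DNBSEQ instrument, per the labels' protocols. Bowtie2, DESeq2 and GRCm38.p6 are listed, without role or version, per the submitters' processing notes. The deposited values, called TPM in the table's name, are RPM, reads per 1000000 reads of a total the authors chose: per library, 100% of the 1300 values were whole reads of 1 implied total (tolerance 0.0005 RPM). Of the rows 275 are predicted miRNAs. No libraries of a group agreed within sampling noise (chi-square over degrees of freedom at least 119).

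The test was limma 3.58.1 in R 4.3.3 on log2(RPM + 1) with a variance trend, two-sided, Benjamini-Hochberg adjusted over 475 miRNAs. edgeR 4.0.16 (quasi-likelihood, TMM) and DESeq2 1.42.0 on recovered reads were alternatives. The tests were also run on simulated counts with the same dispersion for every miRNA and no libraries standing apart. That run therefore does not cover these features of the data. Single values used an exact permutation test (scipy 1.17.1). Precursors and sequences are RefSeq's, on GRCm38.p6, with overlapping genes from GENCODE vM21. Limits set by 0 reads cover counting error only. Members and lists were chosen with earlier results of these data known. The named miRNAs are all members, the passing or 2 lowest-p miRNAs of each list and the 3 nearest profiles; others were named after their values were seen.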

Additional observations from a re-analysis of the deposited data

How the results depend on the processing

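In the 15 or 16 alternatives run per member, miR-34a-5p, miR-449a-5p and miR-449c-5p had negative log2 changes throughout. miR-34a-5p passed in 3, with log2 changes of -0.87 per 1000000 miRNA reads, -0.79 with DESeq2 and -0.96 without the pair that stood apart. miR-449a-5p passed in 4, with -1.20, -1.10 and -1.19 in those same 3 and without hypobaric library 3. The pair held the highest hypobaric and the lowest normal pressure value of miR-34a-5p, and hypobaric library 3 the highest hypobaric value of miR-449a-5p. Leaving out single libraries gave -0.84 to -0.40 for miR-34a-5p, -1.20 to -0.68 for miR-449a-5p and 0.19 to 0.42 for their log2 ratio, which was 0.32 with no pseudocount. The miR-34b and miR-34c rows never passed and changed sign with the scaling. With median-of-ratios scaling they were at -0.13 (miR-34b-3p), -0.039 (miR-34b-5p), -0.043 (miR-34c-3p) and -0.059 (miR-34c-5p), and per 1000000 miRNA reads at -0.18, -0.10, -0.099 and -0.12. miR-34b-3p, miR-34c-3p and miR-34c-5p were at -0.15, -0.046 and -0.074 with edgeR and -0.14, -0.037 and -0.063 with DESeq2. Without the pair miR-34b-3p was at -0.0085 and miR-34c-3p at -0.080. Leaving out single libraries gave -0.048 to 0.16 for miR-34b-3p, -0.36 to 0.40 for miR-34b-5p, -0.058 to 0.21 for miR-34c-3p and -0.14 to 0.24 for miR-34c-5p. The count of all miRNAs called, 23, was 56 with DESeq2, 47 without the pair, and 10 to 34 without single libraries, 10 without hypobaric library 2 and 11 without hypobaric library 1. Shares of higher calls moved with the scaling, 15 of 23 in RPM against 12 of 31 per 1000000 miRNA reads. Over all tested miRNAs, deviations from the group mean correlated at 0.35, -0.47 and -0.29 between the libraries of replicate numbers 1, 2 and 3. For miR-34a-5p, library 2 was lowest and library 3 highest in both groups. The replicate block gave 23 calls, 4.84% of all tested, with limma adjusted p = 0.0505 for miR-34a-5p and 0.0865 for miR-449a-5p. The unadjusted limma p of miR-34a-5p was 0.0197 without the block and 0.00281 with it. Leaving out the pair, summing identical mature sequences and taking ratios with no pseudocount were added after the data were seen. The cause of these shifts was not tested. With a 10 RPM filter miR-449c-5p and miR-34b-5p, the members with the fewest reads among those tested, give no value, and miR-34a-3p has one only with no filter.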

Other observations

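The pair of libraries that stood apart, hypobaric library 3 and normal pressure library 2, also differed in how reads were named. let-7a-1-3p and let-7c-2-3p have an identical mature sequence, and were looked at after their values were seen. let-7a-1-3p was at 155 and 164 RPM in these 2 libraries and at 0.048 to 1.48 RPM in the other 4, while let-7c-2-3p was at no more than 1.65 RPM in the same 2 and at 186 to 241 RPM in the other 4. Their sum was at 157 to 188 RPM under hypobaric hypoxia and 165 to 241 RPM at normal pressure. Among matched names the table holds 3 such groups of identical mature sequences, with 6 names and no member of the miR-34 and miR-449 family. In another, miR-199a-3p and miR-199b-3p, the names moved in opposite directions between the exposure groups. Their log2 changes were 6.54 and -7.25 (limma adjusted p = 2.27e-05 and 0.00111), so both were among the miRNAs called. The third, miR-465b-3p and miR-465c-3p, had log2 changes of 0.94 and -1.62 (limma adjusted p = 0.505 and 0.149). With names of identical mature sequence summed, the second principal component held 16.5% of the variance. Hypobaric library 3 was then at 4.12 and normal pressure library 2 at 4.06, the 2 highest of the 6. Normal pressure library 3 was furthest out, at -6.02, so on the summed table the pair was not alone in standing apart. Hypobaric libraries 1 and 2 and normal pressure library 1 were at 0.37, -1.21 and -1.33. On the summed table limma called 0 members, where 5.3% of all tested were called, and the adjusted p was 0.0552 for miR-449a-5p and 0.124 for miR-34a-5p.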
